A study of Mus musculus with 12 samples.

Results

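10 genes for cytokines of the innate response and of the IL-12 family are described here, out of 45777 genes measured by RNA-seq in mouse CD4+ T cells. They are *Il12b*, *Il12a*, *Il23a*, *Il27*, *Ebi3*, *Il1a*, *Il1b*, *Il18*, *Il6* and *Tnf*. The genes were chosen by symbol, with earlier results of the same 12 libraries known, so the p-values below belong to genes picked with results in view and are not independent support for any change. The CD4+ T cells came from the spleens of wild-type Balb/c mice aged 7 weeks, as the labels give it, and every culture was stimulated with anti-CD3 at 0.5 ug/mL for 3 days. One group received anti-CD3 alone, and the others also received *L. acidophilus*, FK506, or *L. acidophilus* and FK506 together (the combination), with 3 libraries in each group. FK506 is a calcineurin inhibitor given against graft rejection, and *L. acidophilus* is a lactic acid bacterium used as a probiotic. The study asked how the 2 agents act alone and together on stimulated T cells.

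The IL-12 family cytokines are pairs of subunits. IL-12 joins p40 (*Il12b*) to p35 (*Il12a*), IL-23 joins p40 to p19 (*Il23a*), and IL-27 joins p28 (*Il27*) to EBI3 (*Ebi3*), which has also been described paired with p35 as IL-35. IL-12 drives Th1 cells and IL-23 maintains Th17 cells. The IL-1 family members IL-1 alpha, IL-1 beta and IL-18, together with IL-6 and TNF, are released early in inflammation, above all by macrophages and dendritic cells, although activated T cells are also a source of TNF.

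Levels are given as FPKM (fragment numbers corrected for how long a transcript is and how deep its library is), with the 3 libraries of a group in the order of replicates 1, 2 and 3. Depth ranged from 45416397 to 64658165 counts per library, and replicate 1 was the deepest library of every group. Over all genes, replicates 2 and 3 lay closest in the combination (chi-square per degree of freedom of 4.61, against 78.7 and 86.8 to replicate 1) and after *L. acidophilus* (9.57, against 60.2 and 59.5). Pairs within anti-CD3 and FK506 were at 47.7 to 205. Sampling noise alone gives about 1. Repeat preparations of 1 culture can also exceed that, so the check cannot show that libraries are separate samples. Every library was counted as a sample of its own. T cell markers (6 genes) summed to between 945 and 1690 FPKM in the 12 libraries, and *Cd4* was at 131 to 256 FPKM. The summed level of 10 B cell markers ranged over 40.4 to 67.7 FPKM in anti-CD3, over 27.1 to 38.7 after *L. acidophilus*, over 241 to 484 after FK506 and over 140 to 168 in the combination. The macrophage and monocyte markers (10 genes) summed to 3.51 to 5.02, 4.27 to 8.52, 13.4 to 27.1 and 61.1 to 86.4 FPKM in the same order of groups. In bulk RNA, fewer cells of a type and less RNA per cell cannot be told apart.

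All 10 genes passed the filter of a count above 0 in at least 3 libraries. A gene was called when edgeR's adjusted p was under 0.05 and the change was at least 2-fold. Compared to anti-CD3 alone, the combination raised 5 of the 10 genes (*Il12b*, *Il1a*, *Il1b*, *Il18* and *Il6*) and lowered 3 (*Il12a*, *Il23a* and *Il27*), whereas *Ebi3* and *Tnf* were higher by just under 2-fold and by 1.67-fold. Over all 23585 genes tested, 24.6% were called in that comparison, 13.8% higher and 10.8% lower. The 3 combination libraries lay wholly above or wholly below the 3 anti-CD3 libraries for 10 of the 10 genes, as they did for 50.9% of all genes tested. FK506 alone raised 3 of the 10 (*Il1a*, *Il1b* and *Il12b*) and lowered 2 (*Il12a* and *Il23a*), beside 10.6% of all genes, 6.44% higher and 4.12% lower. FK506 and anti-CD3 libraries did not overlap for 4 of the 10 genes, beside 32.9% of all genes. *L. acidophilus* alone gave 0 calls among the 10 with edgeR, beside 0.187% of all genes, while 2 had an unadjusted p under 0.05 (*Il12b* and *Il27*), as did 3489 of all 23585 genes. DESeq2 called both of these, beside 438 of all genes, and limma on log2(FPKM + 1) called 0, beside 11. *L. acidophilus* and anti-CD3 libraries did not overlap for 4 of the 10 genes, beside 18.2% of all genes.

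Against FK506 alone, the combination raised 4 genes (*Il12b*, *Il1a*, *Il18* and *Il6*) and lowered 1 (*Il27*), beside 7.44% of all genes called, 3.84% higher and 3.6% lower. Groups did not overlap for 7 of the 10 genes, beside 40.8% of all genes. Against *L. acidophilus* alone, it raised 5 (*Il12b*, *Il1a*, *Il1b*, *Il18* and *Ebi3*) and lowered 2 (*Il23a* and *Il27*), beside 16.6% called over all genes, 9.93% higher and 6.64% lower. With the replicate number as a block, *Il6* was called as well (1.3, edgeR adjusted p = 0.0333), so that 6 were higher. Here the groups did not overlap for 8 of the 10 genes, beside 50.5% of all genes. The median log2 fold change of the 10 genes was 1.37 against anti-CD3, 1.19 against FK506 and 1.14 against *L. acidophilus*, and those medians are the same when genes at 0 counts in a group are set to their bound. Over all genes the corresponding medians were 0.02, 0.03 and 0. For the single agents the medians of the 10 genes were -0.15 with *L. acidophilus* and -0.11 with FK506, where those of all genes were 0 and 0. The 3 comparisons with anti-CD3 share the same 3 anti-CD3 libraries, and all 3 comparisons of the combination share its libraries.

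**Figure D1:**
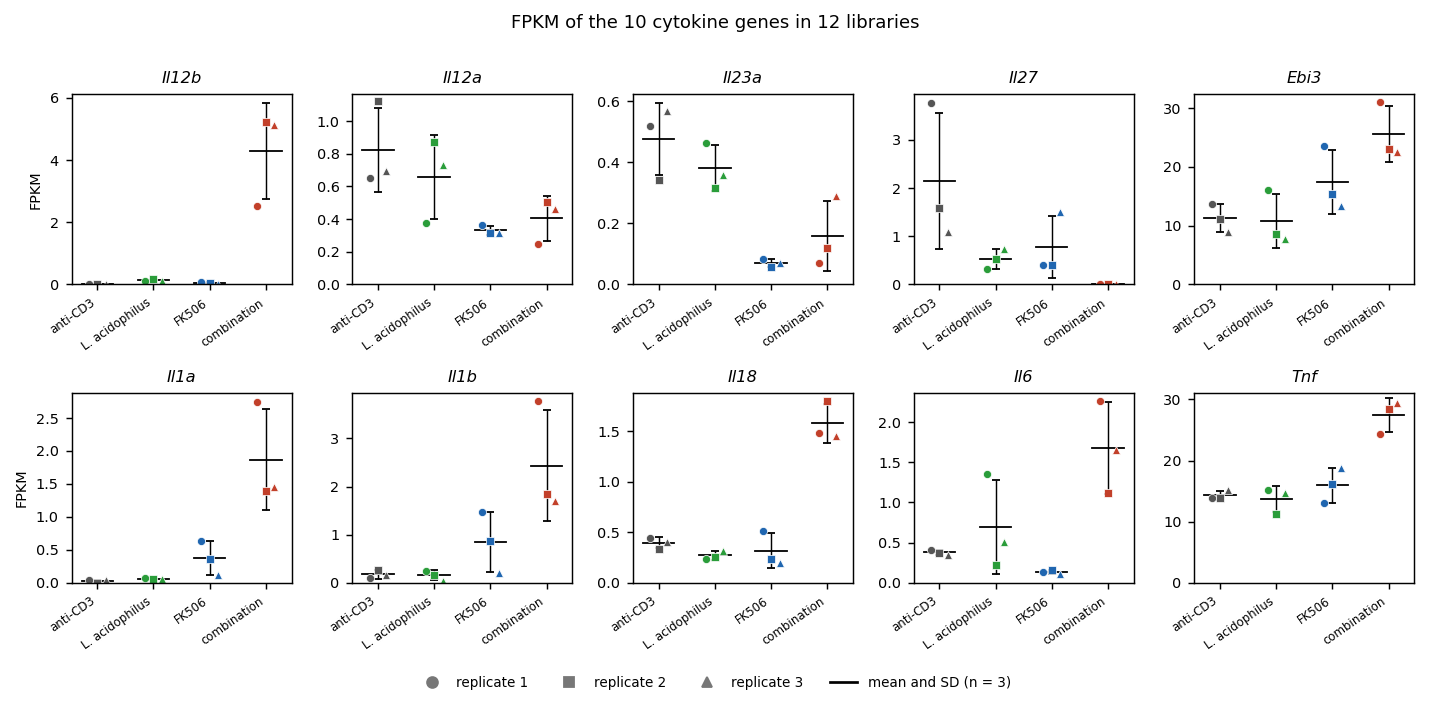
FPKM (vertical axis, linear from 0, scaled for each gene) of the 10 cytokine genes in the 4 groups. Each point is 1 library, with its shape giving the replicate number, and the horizontal line and bar are the mean and SD of 3 libraries. The combination libraries lie above all others for Il12b, Il1a, Il1b, Il18 and Tnf, and Il27 is at 0 in all 3 of them.

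*Il12b* encodes p40, the subunit that IL-12 and IL-23 have in common, and showed the largest rise of the 10 genes against anti-CD3. It lies at chr11:44400063-44414677 (RefSeq, GRCm38.p6), and the 300 bases around its start site (chr11:44399813-44400112, + strand, 250 bases before the start and 50 from it) are shown because no other of the 10 genes went from 0 counts to such a level. Capitals mark GGAAA, the core letters bound by NFAT, the factor that calcineurin activates and FK506 keeps inactive, here as its complement TTTCC, and TATAA, the core of a TATA box.

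Il12b: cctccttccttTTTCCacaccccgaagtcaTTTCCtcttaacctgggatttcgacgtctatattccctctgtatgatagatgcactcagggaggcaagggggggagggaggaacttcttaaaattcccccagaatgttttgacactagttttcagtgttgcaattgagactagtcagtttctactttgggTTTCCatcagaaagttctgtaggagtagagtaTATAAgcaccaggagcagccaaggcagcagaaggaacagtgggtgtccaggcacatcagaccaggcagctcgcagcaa

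GGAAA was found 3 times, on the opposite strand at -239, -220 and -60, and TATAA once at -28, with positions counted from the start site to the first letter of the match. Of 32851 RefSeq promoters of the same length, 61.3% hold GGAAA and 24.9% hold TATAA on either strand, so both matches are common. A match is a description of the letters and not of a bound site. The NF-kB pattern GGGNNTTTC was not found in this window. The AP-1 pattern TGANTCA was likewise not found, nor was the C/EBP pattern TTGCNNAA. Other forms of these sites were not searched, so a pattern not found does not show that a factor has no site here. Il23a and Il27 were not in the promoter table, which held 8 of the 10 genes.

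*Il12b* was at 0 counts in all 3 anti-CD3 libraries. It was at 2.52, 5.21 and 5.14 FPKM in the combination (454, 676 and 709 counts), where replicate 1 was the lowest. With *L. acidophilus* alone it was at 0.106, 0.159 and 0.123 FPKM (20, 24 and 18 counts). With FK506 alone it was at 0.0689, 0.0491 and 0 FPKM (13, 7 and 0 counts). The combination libraries lay far above all 9 others, and the FK506 libraries overlapped anti-CD3 at 0. Against a floor of 3 counts per library, *Il12b* was at least 195-fold higher in the combination than in anti-CD3 (edgeR, adjusted p = 2.15e-05). It was higher than with FK506 by 6.52 on the log2 scale (SE 0.65, edgeR adjusted p = 0.000293) and than with *L. acidophilus* by 4.88 (SE 0.58, edgeR adjusted p = 0.000234). These 3 calls held in every alternative tried.

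The low *Il12b* counts with single agents were less certain. With *L. acidophilus* alone the level was at least 6.62-fold that of anti-CD3, with an edgeR adjusted p of 0.0593. It passed in 4 of 23 alternatives. DESeq2 gave an adjusted p of 3.66e-05, and edgeR gave 0.0245 without FK506 replicate 3, a library outside this comparison. In the edgeR fits leaving out 1 library the adjusted p ran up to 0.202. Over all alternatives, limma fits included, it ran up to 0.751. With FK506 alone *Il12b* was called (edgeR adjusted p = 0.0313) at a bound of 2-fold. That call was lost when any 1 anti-CD3 library, FK506 replicate 1 or FK506 replicate 2 was left out, with adjusted p from 0.0568 to 0.104. It was also lost in 3 limma fits (0.05 to 0.44, adjusted p from 0.342 to 0.892), with the replicate block (edgeR adjusted p = 0.054) and in replicates 2 and 3 alone (0.163).

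*Il12a*, which encodes p35 and so is needed beside p40 to make IL-12, moved the other way. It was at 0.652, 1.12 and 0.694 FPKM in anti-CD3, 0.373, 0.874 and 0.73 with *L. acidophilus*, 0.361, 0.316 and 0.315 with FK506, and 0.248, 0.504 and 0.46 in the combination. Every FK506 and combination library lay below every anti-CD3 library. *Il12a* fell by 1.39 on the log2 scale with FK506 (SE 0.39, edgeR adjusted p = 0.0272) and by 1.22 in the combination (SE 0.38, edgeR adjusted p = 0.0229). The FK506 call was lost without anti-CD3 replicate 2 or without any 1 FK506 library (adjusted p from 0.0668 to 0.102), and the combination call without anti-CD3 replicate 2 (0.0945) or combination replicate 1 (0.0786). The combination call was also lost without TMM scaling (-0.99, edgeR adjusted p = 0.0533), with limma on log2(FPKM + 0.1) (-0.88, adjusted p = 0.0506), on log2(FPKM + 1) (-0.37) and on quantile-normalized values (-0.56), and the FK506 call in the latter 2 (-0.44 and -0.54). The combination differed from FK506 by only 0.17 (95% interval -0.69 to 1.03).

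The ratio of the FPKM of *Il12b* to that of *Il12a* was 0 in anti-CD3, 0.168 to 0.284 after *L. acidophilus*, 0 to 0.191 after FK506, and 10.2 to 11.2 in the combination. The transcript of the shared subunit thus exceeded that of p35 only in the combination libraries. The 3 combination ratios stood close together although the levels of both genes were lowest in replicate 1.

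*Il23a* encodes p19, the subunit particular to IL-23. It was at 0.517, 0.343 and 0.569 FPKM in anti-CD3, 0.463, 0.317 and 0.359 with *L. acidophilus*, 0.0842, 0.0559 and 0.069 with FK506, and 0.071, 0.118 and 0.288 in the combination. The FK506 libraries were the lowest apart from combination replicate 1, which lay among them. *Il23a* fell by 2.75 with FK506 (SE 0.49, edgeR adjusted p = 0.00298) and by 1.77 in the combination (SE 0.46, edgeR adjusted p = 0.00848), both on the log2 scale against anti-CD3. With replicates 2 and 3 alone the combination was at -1.32 (edgeR adjusted p = 0.0588). With limma on log2(FPKM + 1) and on quantile-normalized values both changes were under 2-fold (-0.46 and -0.54 with FK506, -0.35 and -0.47 in the combination). Against *L. acidophilus* the combination was lower by 1.38 (SE 0.46, edgeR adjusted p = 0.0365), a call that was lost without any 1 *L. acidophilus* library, FK506 replicate 3, combination replicate 1 or combination replicate 2 (adjusted p from 0.0501 to 0.114). It was also lost without TMM factors (-1.24, edgeR adjusted p = 0.0627), with only the 6 libraries compared (-1.37, 0.0778), in replicates 2 and 3 alone (-0.86, 0.217), and in 3 limma fits, where the change was under 2-fold (-0.97 to -0.25). *Il12b* exceeded *Il23a* by 17.8 to 44.2 times in FPKM in the combination, and was below it in the other 9 libraries.

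*Il27*, which encodes the p28 subunit of IL-27, was the only one of the 10 genes that went to 0. It was at 3.76, 1.59 and 1.09 FPKM in anti-CD3 (313, 102 and 77 counts), and replicate 1 was the highest. It was at 0.319, 0.528 and 0.743 FPKM with *L. acidophilus* (28, 35 and 48 counts) and at 0.401, 0.412 and 1.51 with FK506 (35, 27 and 97 counts). All 3 combination libraries were at 0 counts. The combination was at least 55.3-fold lower than anti-CD3 (edgeR, adjusted p = 0.000145), at least 19.1-fold lower than FK506 (edgeR, adjusted p = 0.0021) and at least 12.9-fold lower than *L. acidophilus* (edgeR, adjusted p = 0.0014), each against 3 counts per library. With limma on log2(FPKM + 1) the latter 2 did not pass (adjusted p = 0.0931 and 0.148). With *L. acidophilus* alone the libraries lay wholly below anti-CD3 and the difference was -2.11 (SE 0.64), with an edgeR adjusted p of 0.179. With FK506 alone the difference was -1.54 (SE 0.62, edgeR adjusted p = 0.117), and it passed without FK506 replicate 3 (-2.39, adjusted p = 0.027).

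The *Il27* locus (chr7:126589009-126595035, GRCm38.p6) overlaps the next gene, *Apobr*, by 117 bases, and the strand used in counting is not given in the sources used here, so reads in the overlap cannot be assigned with certainty. *Apobr* had 334 to 754 counts in anti-CD3 and 857 to 1415 in the combination, a difference of 0.87 (SE 0.25, edgeR adjusted p = 0.0151).

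*Ebi3*, the partner of p28 in IL-27, did not follow it. It was at 13.7, 11.2 and 8.99 FPKM in anti-CD3, 16, 8.56 and 7.66 with *L. acidophilus*, 23.6, 15.4 and 13.4 with FK506, and 31.1, 23.1 and 22.6 in the combination. *Zfp119b*, which overlaps it by 3611 bases, had 159 to 274 counts in anti-CD3 and 345 to 522 in the combination. Replicate 1 of *Ebi3* was the highest in every group, and only the combination lay wholly above anti-CD3. The difference there was 0.98 on the log2 scale (SE 0.31, edgeR adjusted p = 0.0217), just under 2-fold, and it crossed 2-fold in 10 of 23 alternatives, DESeq2 (1.02) and limma on log2(FPKM + 1) (1.11) included. It also did so in the fits without anti-CD3 replicate 1 (1.16), FK506 replicate 3 (1.02), combination replicate 2 (1.06) or combination replicate 3 (1.08), while without anti-CD3 replicate 2, anti-CD3 replicate 3 or combination replicate 1 the adjusted p was above 0.05. Against *L. acidophilus*, *Ebi3* was called higher by 1.13 (SE 0.31, edgeR adjusted p = 0.0138), and this was lost without *L. acidophilus* replicate 2, *L. acidophilus* replicate 3 or combination replicate 1 (log2 fold change down to 0.94, adjusted p up to 0.0598). The FPKM ratio of *Ebi3* to *Il27* was 3.64 to 8.25 in anti-CD3, 10.3 to 50.2 after *L. acidophilus* and 8.87 to 58.9 after FK506, and in the combination it stood with *Il27* at 0.

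**Figure D2:**
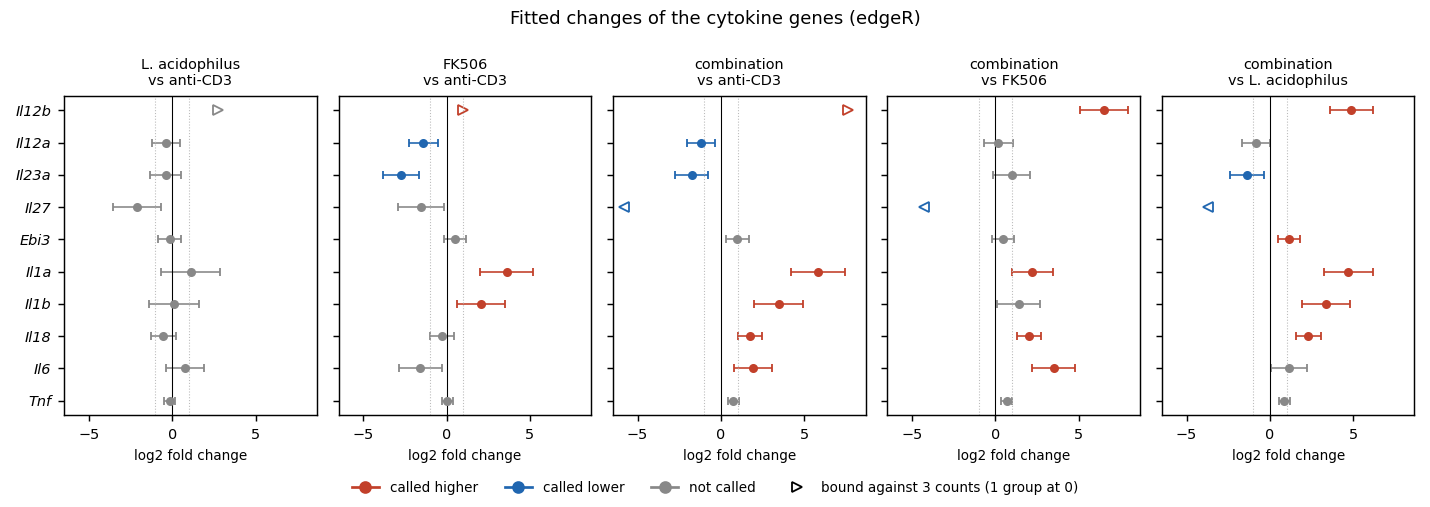
Fitted log2 fold changes (horizontal axis) of the 10 genes in 5 comparisons, with dotted lines at 2-fold. Bars are 95% confidence intervals derived from edgeR's log2 fold change and test statistic. Open triangles are bounds against 3 counts per library for genes at 0 in 1 of the groups. Il12b lies furthest to the right and Il27 furthest to the left against anti-CD3 in the combination, and no gene is called with L. acidophilus alone.

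*Il1a* and *Il1b* encode IL-1 alpha and IL-1 beta, which signal through the same receptor. Their genes neighbour each other on chromosome 2 (chr2:129299609-129310186 and chr2:129364569-129371164), and their promoters are shown because they had the most alike levels among the 10 genes, with a Pearson r of 0.97 between their log2(FPKM + 1) values over 12 libraries. The windows are chr2:129309923-129310222 and chr2:129371090-129371389, both on the - strand, and capitals mark GGAAA and TATAA as above. In *Il1a* they also mark the AP-1 pattern.

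Il1a: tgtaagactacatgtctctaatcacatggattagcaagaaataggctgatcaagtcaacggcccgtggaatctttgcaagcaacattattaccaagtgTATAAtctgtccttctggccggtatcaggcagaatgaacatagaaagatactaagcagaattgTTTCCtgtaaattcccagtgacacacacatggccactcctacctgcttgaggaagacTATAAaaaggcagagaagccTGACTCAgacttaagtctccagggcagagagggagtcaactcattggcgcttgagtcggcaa

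Il1b: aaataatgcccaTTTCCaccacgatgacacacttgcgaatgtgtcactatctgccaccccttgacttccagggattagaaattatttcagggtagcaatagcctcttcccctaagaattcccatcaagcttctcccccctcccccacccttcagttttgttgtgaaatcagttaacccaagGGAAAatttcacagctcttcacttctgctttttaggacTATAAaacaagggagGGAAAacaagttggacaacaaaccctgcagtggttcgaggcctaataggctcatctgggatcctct

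TATAA stands at -32 in *Il1a* and -31 in *Il1b*. The AP-1 pattern TGANTCA was found in *Il1a* at -12, and 7.81% of all promoters hold it.

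*Il1a* was at 0.0358, 0 and 0.0346 FPKM in anti-CD3, 0.0695, 0.05 and 0.0557 with *L. acidophilus*, 0.635, 0.362 and 0.118 with FK506, and 2.75, 1.39 and 1.46 in the combination. The 4 groups did not overlap in this order. *Il1a* rose by 3.61 on the log2 scale with FK506 (SE 0.72, edgeR adjusted p = 0.00534) and by 5.82 in the combination (SE 0.73, edgeR adjusted p = 8.19e-05). The combination stood above *L. acidophilus* by 4.7 (SE 0.67, edgeR adjusted p = 0.000316) and above FK506 by 2.21 (SE 0.57, edgeR adjusted p = 0.0187). The last call was lost without FK506 replicate 2, FK506 replicate 3 or combination replicate 1 (adjusted p up to 0.0669), and it was under 2-fold with quantile limma (0.91). The rise with FK506 alone did not pass with limma on log2(FPKM + 1), at 0.41 and an adjusted p of 0.134, or with quantile limma (0.38, 0.129). *Gm14023* overlaps *Il1a* by 8218 bases and was at 7 to 21 counts in the anti-CD3 and *L. acidophilus* libraries, where *Il1a* had 0 to 11, and at 8 to 27 in the combination, where *Il1a* had 150 to 392. As the strand used in counting is not given, the low *Il1a* values cannot be told apart from reads of *Gm14023*.

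*Il1b* was at 0.09, 0.272 and 0.152 FPKM in anti-CD3, 0.251, 0.162 and 0.0446 with *L. acidophilus*, 1.46, 0.861 and 0.202 with FK506, and 3.77, 1.84 and 1.7 in the combination. FK506 replicate 3 lay among the anti-CD3 libraries, while all 3 combination libraries lay above the 9 others. *Il1b* rose by 3.46 against anti-CD3 (SE 0.67, edgeR adjusted p = 0.00139) and by 3.34 against *L. acidophilus* (SE 0.66, edgeR adjusted p = 0.00233). The rise with FK506 alone was 2.07 (SE 0.65, edgeR adjusted p = 0.0455), and it was lost without any 1 anti-CD3 library, *L. acidophilus* replicate 2, FK506 replicates 1 or 2, or combination replicates 2 or 3 (adjusted p from 0.0552 to 0.177). It was also lost with only the 6 libraries compared (2.06, edgeR adjusted p = 0.0572), in replicates 2 and 3 alone (1.26, 0.21), and with limma on log2(FPKM + 0.1) (1.56, adjusted p = 0.0924), on log2(FPKM + 1) (0.6, 0.158) and on quantile-normalized values (0.52, 0.189). The combination exceeded FK506 by 1.4 (SE 0.6), with an edgeR adjusted p of 0.126.

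*Il18* encodes IL-18, which with IL-12 induces IFN-gamma. It was at 0.442, 0.336 and 0.404 FPKM in anti-CD3, 0.239, 0.251 and 0.317 with *L. acidophilus*, 0.516, 0.239 and 0.199 with FK506, and 1.48, 1.8 and 1.45 in the combination. The *L. acidophilus* libraries lay wholly below anti-CD3, the FK506 libraries on both sides of it, and the combination above all others. *Il18* rose by 1.76 against anti-CD3 (SE 0.33, edgeR adjusted p = 0.00123), by 2.03 against FK506 (SE 0.34, edgeR adjusted p = 0.00209) and by 2.3 against *L. acidophilus* (SE 0.34, edgeR adjusted p = 0.000417). With limma on log2(FPKM + 1) and on quantile-normalized values the rise was under 2-fold against anti-CD3 (0.89 and 0.66) and FK506 (0.97 and 0.83), and with the latter also against *L. acidophilus* (0.83), each at an adjusted p of at most 0.000191. Neither single agent moved it past the threshold (-0.54, SE 0.34, and -0.27, SE 0.34, edgeR adjusted p = 0.481 and 0.631). *Bco2* overlaps *Il18* by 515 bases and was at 0 to 9 counts in anti-CD3 and 32 to 44 in the combination, against 27 to 38 and 99 to 126 counts of *Il18*.

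With edgeR, 1 of the 10 genes, *Il18*, was called as differing in the combination from what adding both single effects on the log2 scale would give, beside 4.35% of all genes (1.35% of all genes lay above the sum). Its departure was 2.57 on the log2 scale (SE 0.48, edgeR adjusted p = 0.0157), and without *L. acidophilus* replicate 2 its adjusted p was 0.0507. *Il6* and *Tnf* lay above their sums by 2.72 (SE 0.77) and 0.83 (SE 0.22), with edgeR adjusted p of 0.0706 and 0.0534. *Il6* passed with DESeq2 (2.77, adjusted p = 0.0123), with the replicate number as a block (2.9, edgeR adjusted p = 0.03) and without *L. acidophilus* replicate 1 (edgeR adjusted p = 0.0161). *Tnf* passed with DESeq2 (0.87, adjusted p = 0.00397), with edgeR after filterByExpr (0.0414), with the block (0.0405) or without FK506 replicate 3 (0.0445), and in 3 limma fits (adjusted p from 0.0285 to 0.0402). *Il1a* passed in 2 limma fits, at 1 and 0.87 (adjusted p = 0.0368 and 0.0425). *Il12b* and *Il27* have a group at 0 counts, so their fitted departures depend on the prior count and were not read. The number of members called thus ranged from 0 without *L. acidophilus* replicate 2 to 4 with DESeq2 (*Il27* counted) or with limma on log2(FPKM + 1) (*Il12b* counted). Over all genes these 3 fits called 332, 2380 and 1675 departures.

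*Il6* encodes IL-6, which acts on T cells toward the Th17 fate. Its window (chr5:30012864-30013163, + strand, GRCm38.p6) is shown because it alone of the 9 windows of these genes holds both GGGNNTTTC, the NF-kB pattern found in 4.36% of all promoters, and TTGCNNAA, the C/EBP pattern found in 10.8%. Of the other windows, *Il18* holds the NF-kB pattern (at 37, past the start, on the opposite strand) and none holds the C/EBP pattern. Capitals mark these, the AP-1 pattern and GGAAA on either strand.

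Il6: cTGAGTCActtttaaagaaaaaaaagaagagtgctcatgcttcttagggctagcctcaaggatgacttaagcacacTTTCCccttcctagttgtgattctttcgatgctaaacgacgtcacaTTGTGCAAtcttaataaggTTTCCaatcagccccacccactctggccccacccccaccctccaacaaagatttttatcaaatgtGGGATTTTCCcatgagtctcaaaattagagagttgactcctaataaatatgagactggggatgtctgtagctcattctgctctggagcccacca

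The NF-kB pattern stands at -44, the C/EBP pattern at -128 and the AP-1 pattern at -249. GGAAA was found on the opposite strand at -174, -109 and -39, the last overlapping the NF-kB pattern. The gene A230098N10Rik covers the whole of *Il6* and was at 0 to 17 counts in the 12 libraries.

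*Il6* was at 0.408, 0.371 and 0.348 FPKM in anti-CD3, 1.35, 0.219 and 0.502 with *L. acidophilus*, 0.135, 0.157 and 0.107 with FK506, and 2.26, 1.12 and 1.65 in the combination. The FK506 libraries lay below all others, the combination lay above anti-CD3 and FK506, and *L. acidophilus* replicate 1 reached into the combination. *Il6* rose in the combination by 1.92 against anti-CD3 (SE 0.52, edgeR adjusted p = 0.0112) and by 3.49 against FK506 (SE 0.58, edgeR adjusted p = 0.0021). The rise against anti-CD3 was under 2-fold with limma on log2(FPKM + 1) (0.94) and on quantile-normalized values (0.71). With FK506 alone the difference was -1.57 (SE 0.58, edgeR adjusted p = 0.0813), and the fall passed with DESeq2 (-1.57, adjusted p = 0.0441), with the replicate number as a block (-1.6, edgeR adjusted p = 0.0444), with only the 6 libraries compared (edgeR adjusted p = 0.0341) and without *L. acidophilus* replicate 1 or 2 (edgeR adjusted p = 0.0211 and 0.0339). Against *L. acidophilus* the combination was at 1.15 (SE 0.51, edgeR adjusted p = 0.102), at 1.3 with the replicate number as a block (edgeR adjusted p = 0.0333), and at 2.09 without *L. acidophilus* replicate 1 (edgeR adjusted p = 0.00403).

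*Tnf*, which encodes TNF and had the highest mean level of the 10 genes in anti-CD3, *L. acidophilus* and the combination, was at 13.9, 13.8 and 15.2 FPKM in anti-CD3, 15.1, 11.3 and 14.7 with *L. acidophilus*, 13, 16.2 and 18.7 with FK506, and 24.3, 28.5 and 29.5 in the combination. The combination libraries lay above all 9 others, which overlapped among themselves. The difference was 0.74 against anti-CD3 (SE 0.15, edgeR adjusted p = 0.00223), 0.69 against FK506 (SE 0.15, edgeR adjusted p = 0.00924) and 0.87 against *L. acidophilus* (SE 0.15, edgeR adjusted p = 0.00114). All of these passed the p threshold and none reached 2-fold with edgeR. Against *L. acidophilus* the difference reached 2-fold without TMM factors (1.01, edgeR adjusted p = 0.000547), with limma on log2(FPKM + 0.1) (1, adjusted p = 0.000601) and in replicates 2 and 3 alone (1.01, edgeR adjusted p = 0.00281).

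In every group *Tnf* and *Ebi3* stood 1st and 2nd in mean FPKM, in 1 order or the other, and their ranges overlapped in the *L. acidophilus*, FK506 and combination groups. The 3rd place changed with the group. In anti-CD3 it was *Il27* (2.15 ± 1.42 FPKM, SD, n = 3), whose lowest library overlapped *Il12a* (0.822 ± 0.259). With *L. acidophilus* it was *Il6* (0.689 ± 0.588) and with FK506 *Il1b* (0.842 ± 0.631), each within the spread of the genes that followed. In the combination it was *Il12b* (4.29 ± 1.54), ahead of *Il1b* (2.44 ± 1.16), *Il1a* (1.87 ± 0.764), *Il6* (1.68 ± 0.575) and *Il18* (1.58 ± 0.195), and these 5 ranges also overlapped with their neighbours. *Il12b* thus went from the last place in anti-CD3 to the 3rd in the combination, and *Il27* from the 3rd to the last.

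The receptors of these cytokines were listed by role, and 7 of the 12 were called in the combination against anti-CD3 (5 higher and 2 lower), beside 24.6% of all genes (13.8% higher and 10.8% lower). Of the IL-12 receptor, *Il12rb2*, the chain that Th1 cells induce to respond to IL-12, was at 44.6, 42.3 and 69.8 FPKM in anti-CD3, 17.1, 26.8 and 34.7 with *L. acidophilus*, 4.38, 2.77 and 8.23 with FK506, and 2.66, 2.28 and 3 in the combination. It fell by 3.42 with FK506 (SE 0.37, edgeR adjusted p = 0.000189) and by 4.13 in the combination (SE 0.38, edgeR adjusted p = 1.35e-05), and the combination and FK506 libraries overlapped. *Il12rb1*, the chain common to the IL-12 and IL-23 receptors, fell by 1.31 in the combination (SE 0.19, edgeR adjusted p = 0.000219), from 87.6 ± 12.6 to 42.3 ± 9.76 FPKM (SD, n = 3). The IL-12 ligand subunit *Il12b* and both IL-12 receptor chains therefore moved in opposite directions.

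*Il23r*, the chain particular to the IL-23 receptor, moved up. It was at 0.183, 0.0897 and 0.148 FPKM in anti-CD3 and 4.7, 3.64 and 4.19 in the combination, with FK506 between them at 1.22, 0.813 and 0.344. The rise in the combination was 4.65 (SE 0.55, edgeR adjusted p = 5.63e-05). The IL-18 receptor chains *Il18r1* and *Il18rap* rose by 4.08 (SE 0.53, edgeR adjusted p = 0.000102) and 4.04 (SE 0.31, edgeR adjusted p = 7.37e-06), and with FK506 alone by 2.24 each (edgeR adjusted p = 0.00902 and 0.000525). *Il1r1*, the signalling IL-1 receptor, rose by 2.98 (SE 0.46, edgeR adjusted p = 0.000305), and *Tnfrsf1b*, the second TNF receptor, by 2.24 (SE 0.28, edgeR adjusted p = 7.18e-05). *Tnfrsf1b* also lay above the sum of the single effects (1.53, SE 0.38, edgeR adjusted p = 0.0439). *Il1rap*, *Il6ra*, *Il6st*, *Il27ra* and *Tnfrsf1a* were not called, with log2 fold changes from -0.49 to 0.62 in the combination against anti-CD3. *Il27ra* was at 79.1 ± 12.8 FPKM in the combination, where its ligand subunit *Il27* was at 0, and at 45.3 ± 6.12 in anti-CD3 (SD, n = 3).

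**Figure D3:**
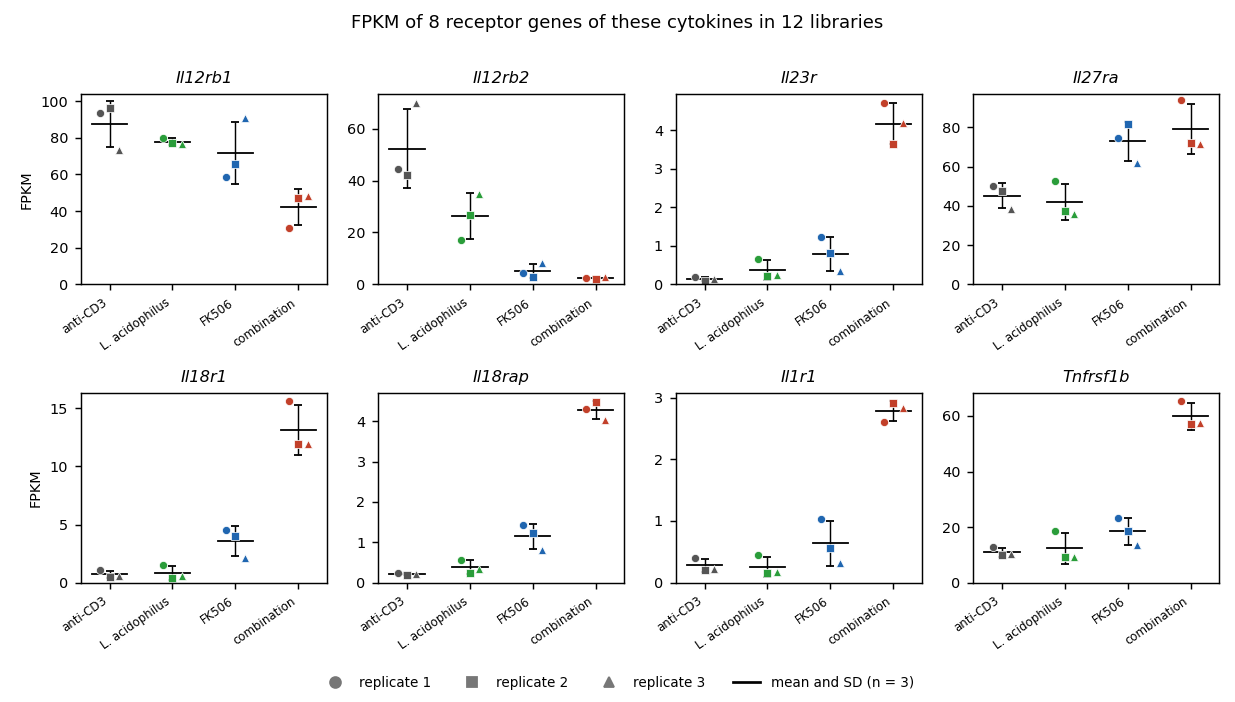
FPKM (vertical axis, linear from 0, scaled for each gene) of 8 receptor genes in the 4 groups, 1 point per library with its shape giving the replicate number, and the mean and SD of 3 libraries as line and bar. Il12rb1 is lower in the combination than in all other libraries, Il12rb2 overlaps there with FK506, and Il23r, Il18r1, Il18rap, Il1r1 and Tnfrsf1b are higher there than in all other libraries.

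Beyond the receptors, 37 further partner genes were listed. Among 6 decoys and inhibitors, the decoy receptor *Il1r2* rose by 2.54 in the combination against anti-CD3 (SE 0.47, edgeR adjusted p = 0.00105) and *Irak3*, which restrains IL-1 receptor signalling, by 1.99 (SE 0.48, edgeR adjusted p = 0.00578). Among 6 processing genes, *Casp1*, the protease that matures IL-1 beta and IL-18, rose by 1.2 (SE 0.21, edgeR adjusted p = 0.000671), whereas the other inflammasome genes *Nlrp3* (0.95, SE 0.57) and *Pycard* (-0.56, SE 0.29) did not pass (edgeR adjusted p = 0.204 and 0.141). Of 11 adaptors and kinases, *Jak1* rose by 1.09 (SE 0.13, edgeR adjusted p = 5.02e-05) and *Jak2*, a kinase of the IL-12 and IL-23 receptors, fell by 2.11 (SE 0.21, edgeR adjusted p = 2.06e-05). None of 10 transcription factors was called with edgeR. An adjusted p under 0.05 was found for 7 of them, 5 higher and 2 lower, beside 10209 of all 23585 genes. Of the related ligands, *Ltb*, encoding lymphotoxin beta, rose by 1.95 (SE 0.37, edgeR adjusted p = 0.00129). *Il33* was also called, with 185, 22 and 17 counts in the combination against 0 to 4 in anti-CD3, and replicate 1 was far above the others.

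Over all 49 partner genes, 14 were called in the combination against anti-CD3 (11 higher and 3 lower), 9 with FK506 (6 higher and 3 lower), and 0 with *L. acidophilus*. With *L. acidophilus* 11 had an unadjusted p under 0.05 (3489 of all 23585 genes did). There DESeq2 called 1 and limma 0, beside 438 and 11 of all genes. The combination differed from FK506 in 7 (all higher) and from *L. acidophilus* in 15 (12 higher and 3 lower). The shares, 28.6%, 18.4%, 14.3% and 30.6% of the 49, stand beside the 24.6%, 10.6%, 7.44% and 16.6% called over all genes. *Irak2* (1.65, SE 0.21, edgeR adjusted p = 0.00447), *Irf5* (1.52, SE 0.3, edgeR adjusted p = 0.0181) and *Stat4* (1.19, SE 0.27, edgeR adjusted p = 0.0302) also lay above the sum of the single effects.

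Macrophages and dendritic cells are known sources of most of these cytokines, so their markers are given beside the members, followed by those of the other cell types listed. Of the 10 macrophage and monocyte markers, 9 were called higher in the combination against anti-CD3, 8 with FK506 against anti-CD3, and 6 in the combination against FK506, beside 13.8%, 6.44% and 3.84% of all genes called higher. *Lyz2* was at 0 to 0.0327 FPKM in anti-CD3 and 14.5 to 30.8 in the combination, and *Csf1r*, *Ms4a7* and *Fcgr1* were at 0 counts in all anti-CD3 libraries. With FK506 the summed markers were 27.1, 22.3 and 13.4 FPKM in replicates 1 to 3, the same order as *Il1a*, *Il1b*, *Il12a*, *Il12b*, *Il18* and *Ebi3* there, while *Tnf* and *Il27* ran in the opposite order and *Il6* and *Il23a* in neither. In the combination they were 86.4, 61.1 and 63.9 FPKM, and replicate 1 was also the highest for *Il1a*, *Il1b*, *Ebi3* and *Il6*. It was the lowest for *Il12a*, *Il12b*, *Il23a* and *Tnf*, and lay between the others for *Il18*, while *Il27* was at 0 throughout. The part of these cells in the changes of the 10 genes was not tested.

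Of the 8 dendritic cell markers, 6 passed the filter on low counts, and in the combination against anti-CD3 2 were called higher (*Flt3* and *Zbtb46*) and 1 lower (*Batf3*). With FK506 against anti-CD3 *Flt3* and *Itgax* were called higher and *Batf3* lower. *Flt3* ranged over 0.152 to 0.216 FPKM in anti-CD3, 0.182 to 0.62 after *L. acidophilus*, 0.319 to 1.47 after FK506 and 4.15 to 5.09 in the combination. *Zbtb46* ranged over 1.67 to 1.92, 1.33 to 1.86, 1.23 to 2.62 and 4.54 to 5.97 FPKM in the same order of groups. *Itgax* was highest after FK506 (1.02 to 2.01 FPKM) and lower in the combination (0.648 to 0.766; log2 fold change -1.18, SE 0.3, edgeR adjusted p = 0.018), and it was at 0.286 to 0.462 in anti-CD3. *Batf3* was at 30.5 to 61.7 FPKM in anti-CD3 and 2.32 to 4.8 in the combination and made up most of the list's sum in anti-CD3 (32.7 to 64.1 FPKM; the sum ranged over 12.5 to 17.6 for *L. acidophilus*, 6.44 to 9.25 for FK506 and 12.1 to 16.7 for the combination). *Clec9a* and *Cd209a* were at 0 counts in all anti-CD3, *L. acidophilus* and FK506 libraries and at up to 8 counts in the combination. Their part was not tested either. Of the 10 B cell markers, 10 were called higher with FK506 than in anti-CD3, and 5 higher in the combination than in anti-CD3, beside 6.44% and 13.8% of all genes. In the combination 8 were called higher than with *L. acidophilus* and 8 lower than with FK506, beside 9.93% and 3.6% of all genes.

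Of 6 neutrophil markers, 2 passed the filter on low counts and both were called higher in the combination than in anti-CD3. *Mmp8* was at 0 counts in anti-CD3 and at 1.11 to 1.62 FPKM in the combination (at least 61.5-fold higher, edgeR adjusted p = 0.000858), with 0 to 22 counts after FK506. *Csf3r* was at 0 counts in anti-CD3 and at 6 to 46 in the combination (edgeR adjusted p = 0.0224), while *S100a8* and *Retnlg* were at 0 counts in all 12 libraries. The summed level of the 6 markers was at most 0.0724 FPKM in anti-CD3, 0.0182 after *L. acidophilus* and 0.166 after FK506, and ranged over 1.45 to 1.78 in the combination. Of the NK cell markers, *Klrb1c* was at 0 counts in anti-CD3, 4 to 27 with FK506 and 26 to 61 in the combination, and was called higher with FK506 (at least 3.6-fold, edgeR adjusted p = 0.0278) and in the combination (at least 11.5-fold, edgeR adjusted p = 0.0029). *Ncr1* was at 93, 0 and 10 counts in the combination and was not called against anti-CD3. Both *Klrb1c* and *Ncr1* were called higher in the combination than with *L. acidophilus* (edgeR adjusted p = 0.0213 and 0.0348), where the *Ncr1* libraries overlapped. The 2 summed to 0 to 0.0295, 0 to 0.0395, 0.0241 to 0.266 and 0.19 to 1.19 FPKM in the same order of groups. Of the CD8 T cell markers *Cd8a* was called higher with FK506 than in anti-CD3 (2.38, SE 0.56, edgeR adjusted p = 0.0123). It was called lower in the combination than with FK506 (-1.98, SE 0.55, edgeR adjusted p = 0.0269), and *Cd8b1* was called in neither. By edgeR, 0 of the 3 mast cell and basophil markers tested were called in any comparison. *Ms4a2* had an unadjusted edgeR p under 0.05 against anti-CD3 with *L. acidophilus* (0.043) and in the combination (0.0329). The 4 markers of that list summed to 1.2, 0.0614 and 0 FPKM in *L. acidophilus* replicates 1 to 3 and to 1.24, 0.121 and 0.131 in those of the combination, with 0.0234 to 0.236 after FK506 and 0.0261 to 0.0652 in anti-CD3. *L. acidophilus* replicate 1 was also the library whose *Il6* reached into the combination. The part of these cell types was likewise not tested.

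**Figure D4:**
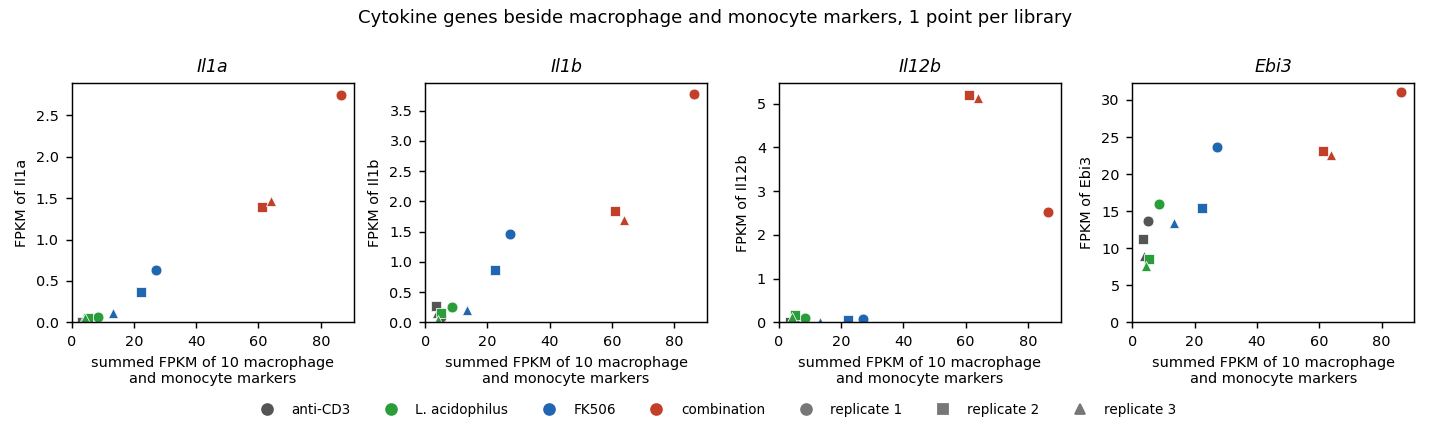
FPKM of 4 cytokine genes (vertical axis) against the summed FPKM of 10 macrophage and monocyte markers (horizontal axis), both linear from 0, with 1 point per library, colours for groups and shapes for replicate numbers. Il1a and Il1b are highest in the library with the highest marker sum (86.4 FPKM), and Il12b stands above 2.5 FPKM in the combination libraries alone, lowest in that same library.

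The genes whose log2(FPKM + 1) was most like that of each member over the 12 libraries were looked up among 13076 genes, as a description, since libraries of 1 group share its treatment. *Il1a* was most like *Prr29* (Pearson r = 0.994), followed by *Gm31392* and *Cd93*. *Il1b* was most like *Dll1* (r = 0.99), *Tmem86a* and *Tyrobp*, and *Il18* like *Anxa4* (r = 0.98), *Slc39a13* and *Bmf*. *Il12b* was most like *1810073O08Rik* and *Slc7a11* (r = 0.983 each) and *Gm3667*. *Il27* was most like *Ido2* (r = 0.974), which stood at 1.52 FPKM in anti-CD3 and 0.35 in the combination, followed by *Ak3l2-ps* and *Pdk1*. *Ebi3* was most like *Rrad* and *Gna15* (r = 0.977 each) and *Ccr1*, *Tnf* like *Blcap* (r = 0.951), *Gm16157* and *Zfp667*, and *Il6*, with the lowest likeness, like *Serpinb9b* (r = 0.919), *Ccdc126* and *Ctsb*. *Il12a* and *Il23a* were under a mean of 1 FPKM in every group and were not looked up. Among the 10 genes themselves, *Il12b* stood nearest to *Il18* (r = 0.95) and *Tnf* (r = 0.91), and *Il12a* to *Il23a* (r = 0.62).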

How the data were processed

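The labels put 12 RNA-seq libraries in 4 groups of 3. The authors deposited 1 table of 45777 genes with raw counts per gene, as whole numbers that can be rounded estimates (9579 values of 2 and 8053 of 3), and FPKM values, which the deposited table scales to transcript length and fragments. The deposited TPM values were not used. The submitters' processing notes name bcl2fastq 2.20.0, Trimmomatic, HISAT2 2.1.0 and StringTie 2.1.3b, with mm10 and GRCm38. The paper's methods name quantile normalization, which the deposited FPKM totals do not show. They also name another strain and another age than the labels, and the labels are followed here. The strand used in counting is not given in the sources used here. Several members overlap other genes.

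The members and all lists were chosen with earlier results of these data known. The genes named are the members, the listed partners, the fixed marker lists and, for each member with a mean FPKM of at least 1 in a group, the 3 most correlated genes. Overlapping genes were named after their values were seen. Genes counted in at least 3 libraries (23585) were tested on their counts in R 4.3.3 with edgeR 4.0.16 (quasi-likelihood, TMM factors, 1 mean per group over all 12 libraries, Benjamini-Hochberg over all genes tested). DESeq2 1.42.0 and limma 3.58.1 on log2(FPKM + 1) were alternatives, with other filters, scalings, a replicate block, 6 libraries only, no fold cut-off, and each library left out. Leaving out all replicate 1 libraries was added after seeing the data. On simulated counts for the combination against anti-CD3, edgeR recovered 184 of 200 genes changed 4-fold, with 7 others called among 23256. The changed genes were drawn only from those above a minimum mean count. The recovery therefore does not describe members with few counts, such as *Il12a* and *Il23a*. Nothing says that libraries came from separate cultures or animals, so p-values measure the spread between these samples. With 3 against 3, an exact permutation test of 1 gene cannot go below 0.1. Floors of 3 counts cover counting error only. SEs and 95% intervals of log2 fold changes were derived from edgeR's log2 fold change and test statistic, and hold the spread between libraries.

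Correlations of the deviations of same-numbered libraries over 13366 genes were 0.477, 0.316 and 0.192 for *L. acidophilus* against anti-CD3. They were 0.201, 0.208 and 0.124 for the combination against *L. acidophilus*. These 2 comparisons were taken as paired on this check, since no label says what a number marks. The combination against FK506 was not, although its correlations were positive too (0.313, 0.0511 and 0.196). The main tests used no block in any comparison. Promoter windows (250 bases before and 50 from the start) and positions are RefSeq's for GRCm38.p6, and motifs were searched on both strands. The motif patterns were chosen, and those for NF-kB and the TATA box altered, after matches in these windows had been seen, so the matches and the choice of windows printed are description only.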

Additional observations from a re-analysis of the deposited data

Results flagged for a closer look

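*Il18* was called by edgeR as responding to *L. acidophilus* differently when FK506 was also given. The difference was 2.57 on the log2 scale (SE 0.48, edgeR adjusted p = 0.0157). It did not pass without *L. acidophilus* replicate 2 (2.49, edgeR adjusted p = 0.0507). *Bco2*, which overlaps *Il18*, was also called higher in the combination against anti-CD3 (2.6, SE 0.91, edgeR adjusted p = 0.0352). Its own departure was 2.12 (SE 1.3, edgeR adjusted p = 0.414). As the strand used in counting is not given, reads in the overlap cannot be assigned with certainty. *Il18* was the 1 member called by edgeR, while DESeq2 and limma called 4 each and filterByExpr and the replicate block 3 each, *Tnf* among them in each of these fits and *Il6* with DESeq2 and the block.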

How the results depend on the processing

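Of 1359 values of single members under alternatives, 1216 kept their direction and side of the threshold, 50 crossed to being called, 73 lost the call and 20 turned direction. The cause was not tested. Among departures from the sum (1 called, beside 1025 of all 23585 genes), DESeq2 called 4 beside 2380 and the replicate block 3 beside 1578. No filter gave 2 beside 998 of 27800, and filterByExpr 3 beside 1272 of 17909. Limma called 4 beside 1675, limma on quantile-normalized values 4 beside 1786, and a pseudocount of 0.1 gave 3 beside 1413. Leaving out 1 library gave 0 to 2, beside 332 to 1464 of all genes. With FK506 against anti-CD3 (5 called, beside 2491 of all genes), limma and quantile limma called 0 each, beside 967 and 949. A pseudocount of 0.1 gave 3 beside 2087, and replicates 2 and 3 alone 3 beside 2201 of 22096. Leaving out 1 library gave 2 to 6, beside 1666 to 2558. With *L. acidophilus* (0 called, beside 44 of all genes), DESeq2 called 2 beside 438, no filter 1 beside 83, and filterByExpr 1 beside 84. Leaving out 1 library gave 0 to 1, beside 1 to 169. For the combination, limma and quantile limma called 5 and 5 against anti-CD3 (8), 3 and 2 against FK506 (5), and quantile limma 4 against *L. acidophilus* (7). Over all genes the same fits called 2318 and 2259, 647 and 677, and 1581. Of the 49 partners, quantile limma called 5 with FK506 (9) and DESeq2 1 with *L. acidophilus* (0), beside 949 and 438 of all genes. Without the fold cut-off the partners called were 18 with FK506, beside 4483 of all 23585 genes. For the combination they were 31 against anti-CD3 (14), 13 against FK506 (7) and 29 against *L. acidophilus* (15). Over all genes 10209, 4508 and 7930 were called in these 3 comparisons without the cut-off. With the 6-library, TMM-free and replicates 2 and 3 fits, every other count of members stayed within 1.5 times.

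*Ebi3* with *L. acidophilus* ranged from -0.56 to 0.04 over fits leaving out 1 library, *Il12a* in the combination against FK506 from -0.02 to 0.42 (quantile limma -0.02), *Il6* with *L. acidophilus* from -0.17 to 1.18 (replicates 2 and 3 alone -0.1), and *Tnf* with FK506 from -0.07 to 0.19. *Il1b* with *L. acidophilus* ranged from -0.48 to 0.54, and was -0.02 with limma, -0.06 with quantile limma, -0.14 with a pseudocount of 0.1, -0.1 with the replicate block and -0.7 in replicates 2 and 3 alone. The unread departures became 2.13, 1.98, 3.75 and 0.1 for *Il12b* (limma, quantile limma, pseudocount of 0.1, replicates 2 and 3 alone) and 0.19 and 0.26 for *Il27* (limma, quantile limma).

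Without TMM factors the median of all genes moved to 0.23 for the combination against anti-CD3, 0.12 against FK506 and 0.13 against *L. acidophilus*. In comparisons not taken as paired, the replicate block called 6 members for the combination against FK506 (*Il1b* added, 1.52, edgeR adjusted p = 0.0311). It called 5 with FK506 against anti-CD3 (*Il6* added, -1.6, 0.0444, and *Il12b* lost, 0.054). It changed no other call except *Il6* against *L. acidophilus* and the departures of *Il6* (2.9, 0.03) and *Tnf* (0.84, 0.0405). Members under 1 FPKM rest on few counts, and the pseudocount of 1 shrinks their changes.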
